A study of Mus musculus with 22 samples.

Results

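Interferon-stimulated genes are described here library by library, in mouse cells carrying one of 3 forms of the DNA methyltransferase DNMT3A. The 49 genes were listed by name, after 2 of them, Ifit1 and Apol9a, had been seen at higher levels in cells with the W330R form. The difference between W330R and WT cells is therefore given as a description. Test counts for it are printed below, but they are not independent of that choice and nothing is read from them. Of the 49, 48 had a row among the 30170 genes of the count table, and 45 were among the 14520 genes that passed a filter on low counts. Ifit3b was not analysed here, and Trim25, Oasl1 and Epsti1 failed the filter, with values near the lower limit of the counts in most libraries.

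The cells were C3H 10T1/2, a mouse mesenchymal stem cell line that can be turned into adipocytes, in lines expressing DNMT3A1, the long isoform of the enzyme, as WT, as the point mutant W330R or as the double mutant W330R-R181E. RNA was sequenced from undifferentiated WT and W330R cells and from all 3 genotypes 2, 4 and 6 days after the switch to adipocyte medium, which held isobutylmethylxanthine, dexamethasone, insulin and troglitazone until day 2 and insulin alone from then on. Each of the 11 conditions had 2 libraries, called replicate 1 and replicate 2, and no undifferentiated double mutant library was analysed here. The question behind the design was how gene expression during adipocyte differentiation differs between the forms of DNMT3A1.

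Several limits of these groups touch every value below. The labels do not say whether replicates came from separate cultures or lines, so that p-values measure only the spread between these libraries, which may be technical, and genotype and cell line cannot be told apart. The columns of the double mutant carry the name R181A, whereas the sample labels say R181E. Columns of undifferentiated cells were named by another scheme than those of days 2 to 6, and a batch cannot be told apart from the step to day 2. In bulk RNA, fewer cells with a transcript and less transcript per cell cannot be told apart.

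Type I interferons bind the receptor pair IFNAR1 and IFNAR2, which acts through receptor-bound kinases. These activate ISGF3, a factor with STAT2 and IRF9 among its subunits, which binds the interferon-stimulated response element (ISRE) and turns on antiviral genes. Many of these genes are also transcribed at a low level in unstimulated fibroblasts, and Usp18 feeds back by damping the receptor.

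The ISRE core was searched as GAAA, any 2 bases and GAAA again, on either strand, in the 250 bases before each start site of the RefSeq promoter table (mouse build GRCm38.p6). Overlapping matches were counted separately. Among the 39 listed genes found in that table, 19 held a match, a share of 48.7%, whereas 936 of the 27025 genes of the table held one, a share of 3.46%. The promoters below belong to genes whose values are given in the text, and were chosen to show how the element lies in genes of different roles. Each is printed 5′ to 3′ on the transcribed strand, with the matches in capitals.

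Ifit1, chr19:34640784-34640883, plus strand: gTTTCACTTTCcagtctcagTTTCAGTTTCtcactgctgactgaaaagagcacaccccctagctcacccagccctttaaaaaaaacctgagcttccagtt
Ifit3, chr19:34583368-34583467, plus strand: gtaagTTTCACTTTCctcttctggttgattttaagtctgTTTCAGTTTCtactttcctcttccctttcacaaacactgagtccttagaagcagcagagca
Bst2, chr8:71537517-71537616, minus strand: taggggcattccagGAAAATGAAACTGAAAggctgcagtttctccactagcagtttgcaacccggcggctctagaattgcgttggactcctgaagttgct
Stat2, chr10:128270256-128270355, plus strand: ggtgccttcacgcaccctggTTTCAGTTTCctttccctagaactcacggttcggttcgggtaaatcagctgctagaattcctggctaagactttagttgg
Apol9a, chr15:77411081-77411153, minus strand: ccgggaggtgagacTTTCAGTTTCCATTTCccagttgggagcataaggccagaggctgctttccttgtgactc
Trim30a, chr7:104465194-104465253, minus strand: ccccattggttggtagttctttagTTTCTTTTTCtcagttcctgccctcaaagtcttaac
Lgals9, chr11:78984925-78984999, minus strand: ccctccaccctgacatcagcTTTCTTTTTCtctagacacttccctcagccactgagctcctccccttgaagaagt

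Ifit1 and Ifit3 each held 2 separate matches, and the one nearest the start began at position -85 in Ifit1 and at -122 in Ifit3, counted from the start. In Bst2 and Apol9a, 2 overlapping matches formed 1 longer element. Trim30a and Lgals9 held the same 10 letters, in both cases close to the start, at -36 and -55. Apol9b, the close relative of Apol9a, held an element of the same letters as Apol9a. Ifi44, Xaf1, Oasl2 and Helz2 held no match in this window.

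Depth was between 8859501 and 47453908 counted reads per library, with a median of 19355792. Counting error limits low values, and 3 counts in a library, here 0.0632 to 0.339 CPM (counts per M, that is, scaled to library size), were taken as the floor. The summed CPM of 8 adipocyte markers was between 51.5 and 59.6 in undifferentiated cells and between 1440 and 9230 on days 2 to 6, with every W330R library of a day below the WT libraries of that day. The 8 mesenchymal markers summed to between 14900 and 18800 CPM in undifferentiated cells. Markers of immune cells stayed low, with 11 of 12 listed genes found and summing to between 9.84 and 22.3 CPM, Ptprc (CD45) at 16 counts or fewer, Cd3e at 1 count or fewer, and Nkg7 at 0 in every library. The 6 endothelial and epithelial markers summed to between 1.16 and 19.5 CPM. Dnmt3a, the gene behind the design, had a log2 CPM of 8.31 to 8.44 in undifferentiated cells and 6.10 to 8.33 later. A count over gene symbols cannot tell the introduced from the resident form.

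The summed level of the 48 genes was taken in CPM scaled by TMM normalization. It was highest in replicate 1 of W330R on days 2 to 6 and of the double mutant on day 6. Replicate 2 of W330R overlapped in this level with undifferentiated cells and with WT. In undifferentiated cells it was 1080 and 1090 CPM in WT and 1120 and 1150 CPM in W330R. WT libraries of days 2 to 6 lay between 470 and 1070 CPM. In W330R, replicate 1 held 1940, 3140 and 1920 CPM on days 2, 4 and 6, and replicate 2 held 1030, 1090 and 1210 CPM.

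Replicate 1 of W330R was thus above every WT library, while replicate 2 was above the WT libraries of the same day by a smaller margin. The double mutant lay between 475 and 908 CPM in 5 of its 6 libraries. The sixth, replicate 1 of day 6, held 5360 CPM, the highest level of all 22 libraries, whereas replicate 2 of the same day held 908 CPM.

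**Figure D1:**
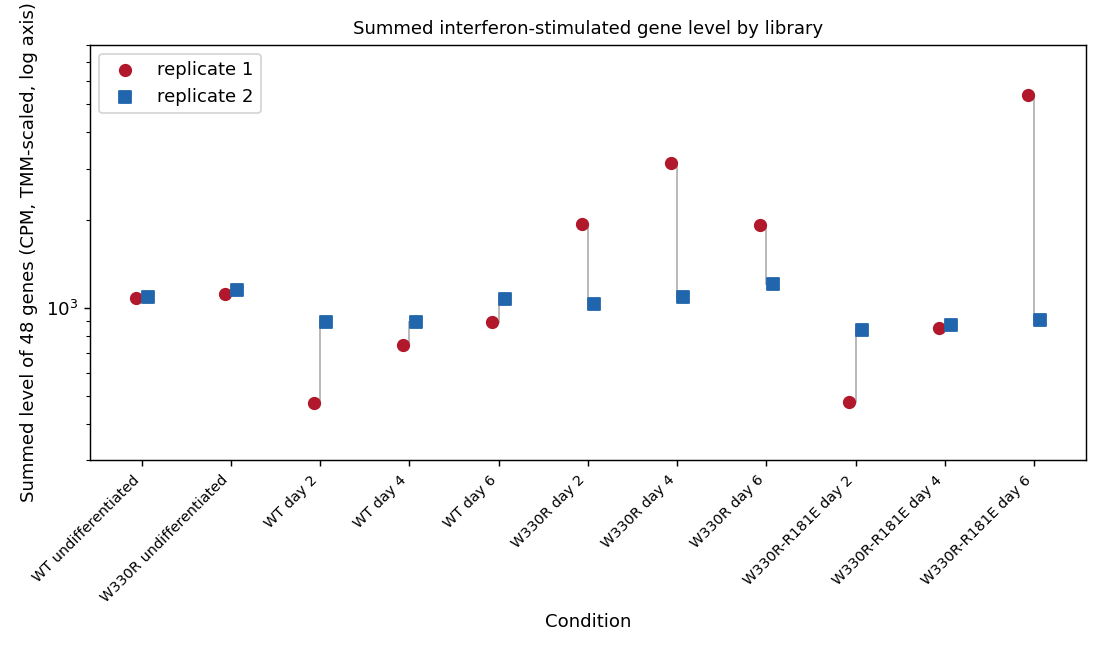
Summed level of the 48 interferon-stimulated genes (CPM after TMM scaling, log axis) in each of the 22 libraries by condition, with circles for replicate 1, squares for replicate 2 and a grey line joining the pair. The widest gap is that of W330R-R181E on day 6 (5360 and 908 CPM), followed by W330R on day 4 (3140 and 1090 CPM), while WT on day 2 (470 and 891 CPM) and W330R on day 2 (1940 and 1030 CPM) have gaps of like size in opposite directions.

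The sum is weighted to genes with many counts, so the mean of the log2 CPM over the 45 filtered genes is given as well. This mean was 2.31 and 2.43 in undifferentiated WT cells, 0.41 and 0.55 on day 2, 1.29 and 1.41 on day 4, and 1.56 and 1.52 on day 6. In W330R it was 2.11 and 2.06 before differentiation, 3.73 and 2.15 on day 2, 4.85 and 2.78 on day 4, and 3.92 and 2.84 on day 6. In the double mutant it was 0.33 and 0.65 on day 2, 1.5 and 1.5 on day 4, and 5.21 and 1.65 on day 6. On this scale every W330R library of days 2 to 6 lay above every WT library of those days.

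**Figure D2:**
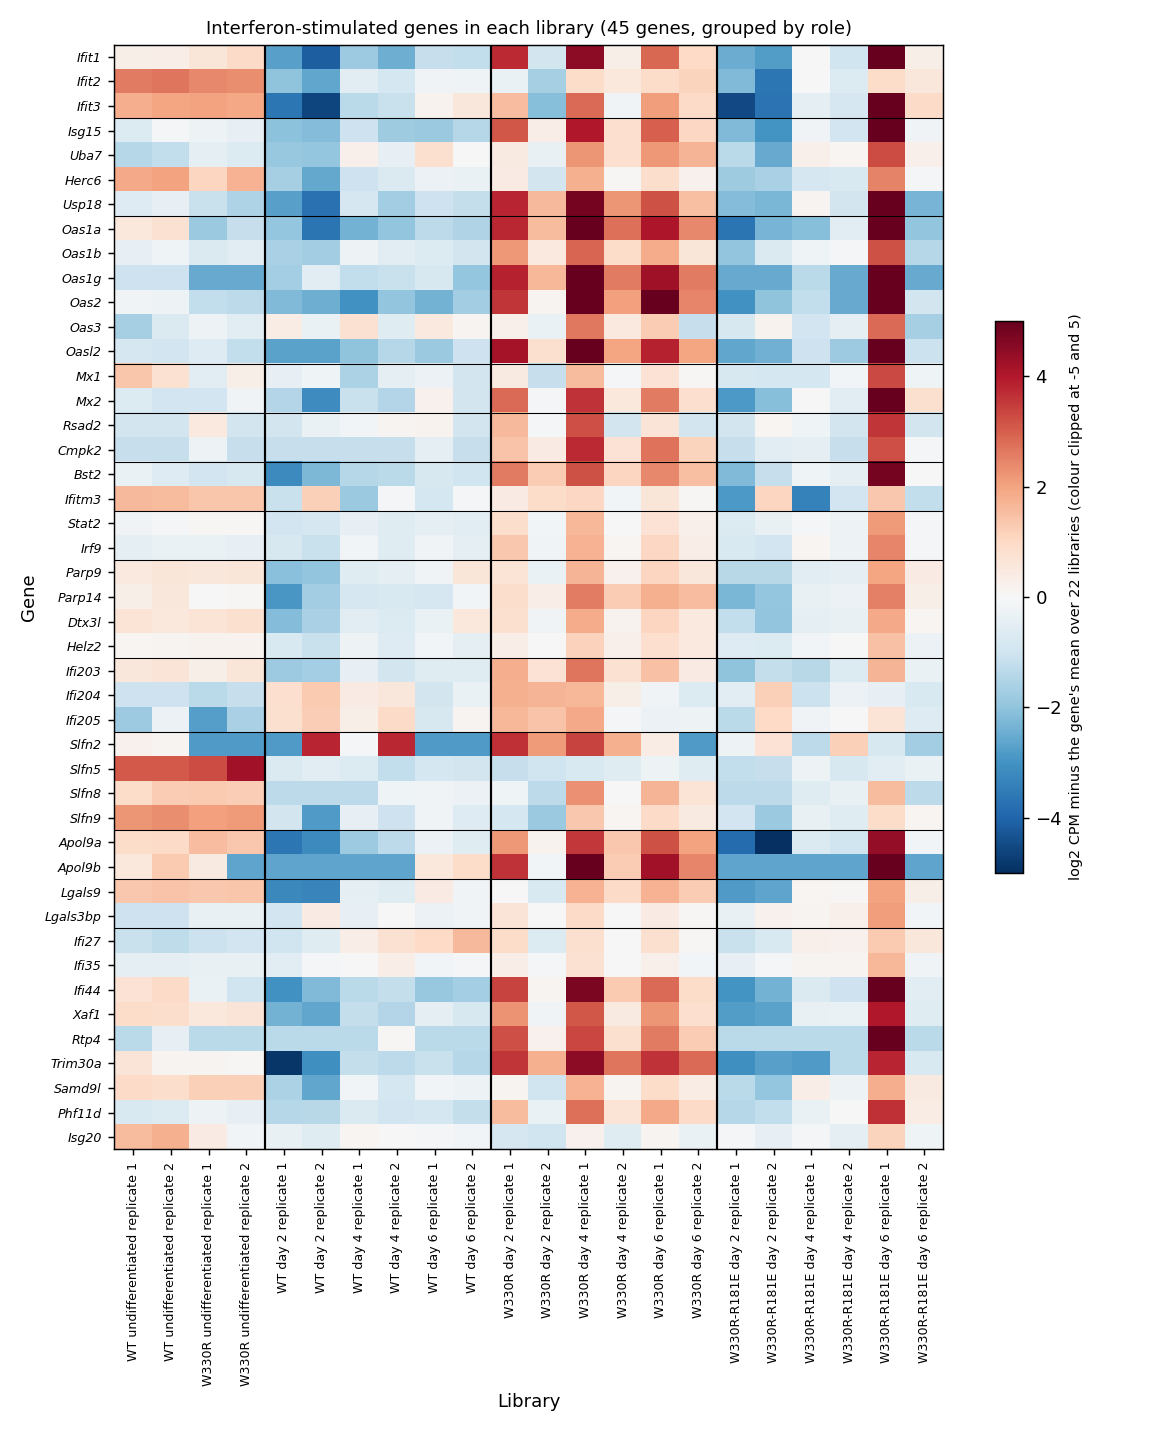
Log2 CPM of the 45 filtered genes (rows, grouped by role with black lines) in the 22 libraries (columns), each as the difference from the gene's own mean over the libraries, red above and blue below. Replicate 1 of W330R on days 2 to 6 and replicate 1 of W330R-R181E on day 6 stand out in red for most genes, whereas Ifit2, Slfn5 and Slfn9 were highest in undifferentiated cells.

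The IFIT proteins bind viral RNA. All values of single genes below are log2 CPM with a prior count of 2, on which a count of 0 reads -3.34, and replicate 1 is given first. In WT, Ifit1 was at 2.67 and 2.72 in undifferentiated cells, at -0.36 and -1.76 on day 2, at 0.56 and -0.06 on day 4, and at 1.21 and 1.16 on day 6. In W330R it was at 2.96 and 3.33 before differentiation, then at 6.09 and 1.45, 6.84 and 2.66, and 5.26 and 3.35 on days 2, 4 and 6. In the double mutant it was at -0.12 and -0.43, 2.35 and 1.37, and 8.26 and 2.67 on the same days.

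Both genotypes started alike for Ifit1, and all 6 differentiating W330R libraries lay above the WT libraries of days 2 to 6. The gap between the W330R replicates was wider than that between replicate 2 and WT on days 2 and 4. Ifit3 shared 61.8% of its 31-base sequences with Ifit3b, which was not analysed here, so its counts may hold reads of both. It had a higher start in undifferentiated cells, 5.08 and 5.23 in WT and 5.27 and 5.19 in W330R. Ifit3 fell to -0.36 and -1.34 in WT on day 2, and reached 8.98 in replicate 1 but 4.23 in replicate 2 of the double mutant on day 6. Ifit2 behaved differently from its relatives: its highest values were those of undifferentiated cells, 5.84 to 6.17 over both genotypes, and it did not exceed 4.61 in any library of days 2 to 6.

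Isg15 is a ubiquitin-like modifier, Uba7 its activating enzyme, Herc6 the mouse ligase and Usp18 the protease that removes it. In WT, Isg15 ranged from -1.17 to -0.05 on days 2 to 6. With W330R it was at 4.07 and 1.30 on day 2, 4.99 and 1.83 on day 4, and 3.96 and 2.00 on day 6. In the double mutant, it was at -1.23 and -2.02, then 0.80 and 0.02, and finally 6.98 and 0.79.

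For Isg15 the W330R and WT libraries of days 2 to 6 did not overlap. Usp18 followed with 5.23 and 3.01, 6.17 and 3.60, and 4.59 and 2.92 in W330R against -2.34 to 0.56 in WT. In the double mutant on day 6 it was at 6.83 in replicate 1 and at -0.91 in replicate 2, far apart within 1 condition. Uba7 also climbed in WT, from 0.93 and 0.90 on day 2 to 3.61 and 2.85 on day 6, below the 5.00 and 4.52 of W330R on that day.

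Oligoadenylate synthetases make the activator of RNase L when they meet double-stranded RNA. Oas2 had few counts in WT, between -3.34 and -2.03 on days 2 to 6. W330R cells held 3.28 and -0.16, 6.63 and 1.73, and 5.07 and 2.13 on days 2, 4 and 6. The double mutant held between -3.34 and -1.24 in 5 libraries and 5.58 in replicate 1 of day 6.

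Oas2 in that 1 library was thus within the range of replicate 1 of W330R, and in the other 5 close to WT. Oas1a and Oas1g were at 1.88 to 5.43 and 0.86 to 4.63 in W330R on days 2 to 6, and at 5.75 and 4.63 in that double mutant library. By 31-base sequences, 68.8% of Oas1a was also found in other transcripts, almost all in Oas1g, so their counts may have been split between them. Oas1b, in which W330R was at 1.88 to 4.29 and WT at -0.35 to 1.13 on these days, shared 6.70%.

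Mx1 and Mx2 are dynamin-like GTPases, and Rsad2 (viperin) and Cmpk2 are neighbouring genes of antiviral nucleotide metabolism. Mx2 was at 3.22 and 0.27, 4.01 and 0.91, and 2.99 and 1.21 in W330R, and at -2.76 to 0.60 in WT over days 2 to 6. Its 6 W330R libraries overlapped with WT only through replicate 2 of day 2. Rsad2 and Cmpk2 were at or near 0 counts in WT, and the highest values were 1.16 for Rsad2 in replicate 1 of the double mutant on day 6 and 1.53 for Cmpk2 in replicate 1 of W330R on day 4.

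Bst2 (tetherin) holds budding virions at the cell surface, and Ifitm3 blocks viral fusion in endosomes. In WT, Bst2 was at 4.10 and 3.79 before differentiation, 1.24 and 2.18 on day 2, 3.03 and 3.10 on day 4, and 3.65 and 3.46 on day 6. In W330R it was at 3.48 and 3.63, then 7.02 and 5.70, 7.63 and 5.50, and 6.86 and 5.93. The double mutant held 2.23 and 3.29, 4.21 and 3.97, and 9.23 and 4.44.

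For Bst2 the W330R and WT libraries of days 2 to 6 did not overlap, and replicate 2 of W330R stood well apart from WT too. Ifitm3 did not share this pattern. Its replicates differed in both directions, with 5.23 and 7.56 in WT on day 2, 3.51 and 7.43 in the double mutant on day 2, and 7.70 and 5.12 in the double mutant on day 6.

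Stat2 and Irf9, the subunits of ISGF3 in the list, were well expressed in all libraries and moved within a narrower range. Irf9 was at 4.09 to 5.07 in WT on days 2 to 6, and in W330R at 6.56 and 5.03, 6.95 and 5.33, and 6.24 and 5.53. Stat2 was at 4.97 to 5.51 in WT and at 6.80 and 5.79, 7.58 and 5.93, and 6.63 and 6.19 in W330R. Both peaked in replicate 1 of the double mutant on day 6, at 7.65 for Irf9 and 8.04 for Stat2. For Stat2 the W330R and WT libraries of days 2 to 6 did not overlap, and for Irf9 they did, by replicate 2 of W330R on day 2.

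Parp9 and Dtx3l form a complex of a macrodomain protein and a ubiquitin ligase, Parp14 is a mono-ADP-ribosyltransferase and Helz2 a helicase coactivator. Parp14 went from 3.30 and 3.57 to 0.11 and 1.27 in WT, and from 2.99 and 3.07 to 3.91 and 3.34 in W330R. On day 6 it was at 2.18 and 2.89 in WT, 4.81 and 4.54 in W330R, and 5.53 and 3.32 in the double mutant. The W330R replicates of Parp14 differed by 0.27 on day 6. Helz2 was at 4.24 to 5.20 in WT and 5.34 to 6.50 in W330R on days 2 to 6, with no overlap, and at 6.81 and 5.04 in the double mutant on day 6.

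Apol9a and Apol9b are apolipoprotein L genes found in rodents. In WT, Apol9a was at 3.24 and 3.27 before differentiation, -1.32 and -0.89 on day 2, 0.48 and 0.99 on day 4, and 2.02 and 1.70 on day 6. In W330R it was at 3.85 and 3.65, then 4.46 and 2.48, 5.83 and 3.66, and 5.49 and 4.30. The double mutant held -1.54 and -2.76, 1.59 and 1.32, and 6.69 and 2.18.

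All 6 W330R libraries of days 2 to 6 lay above those of WT for Apol9a. Apol9b was at a count of 0 in the WT libraries of days 2 and 4 and in 5 of the 6 double mutant libraries, and at 5.42 in the sixth. Since 64.9% of the 31-base sequences of Apol9b were also found in Apol9a, reads may have been shared between them.

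Among the remaining genes, Trim30a, a TRIM-family protein that restrains inflammatory signalling, separated the genotypes in both replicates. In WT it was at 2.17 and 1.69 before differentiation and between -3.34 and 0.43 afterwards. W330R cells held 1.68 and 1.58, then 5.10 and 3.33, 6.01 and 4.21, and 5.15 and 4.36. The double mutant held -1.54 to 0.79 in 5 libraries and 5.35 in replicate 1 of day 6.

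Every differentiating W330R library exceeded every differentiating WT library for Trim30a, and replicate 2 was on the same side as replicate 1. Lgals9 (galectin-9) was at 6.71 and 6.79 in undifferentiated WT cells, 2.14 and 2.05 on day 2, 4.86 and 4.75 on day 4, and 5.78 and 5.18 on day 6. In W330R it was at 6.69 and 6.74, then 5.33 and 4.59, 7.10 and 6.31, and 7.09 and 6.64. The W330R cells thus showed a smaller dip of Lgals9 on day 2 than WT, and lay above WT on each day.

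Lgals3bp, which encodes a galectin-binding secreted glycoprotein, was at 7.07 to 8.43 in WT on days 2 to 6. With W330R it was at 8.64 and 8.01 on day 2 and 8.41 and 8.06 on day 6, and in the double mutant on day 6 at 10.12 and 7.87. Both replicates of W330R overlapped with WT for Lgals3bp, replicate 1 only narrowly and on day 6. Ifi203, of the Ifi200 family, was at 1.98 to 3.39 in WT and 4.22 to 6.47 in W330R on these days, with no overlap.

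Ifi27 and Slfn2 had courses of their own. Ifi27, a mitochondrial protein gene, was at 6.07 and 6.46 on day 2 and at 8.08 and 8.69 on day 6 in WT, above the 7.87 and 7.15 of W330R on day 6. Slfn2, a Schlafen gene, had replicates that disagreed in WT, with -3.34 and 3.28 on day 2 and -0.56 and 3.24 on day 4. It was at 3.14 and 1.60 in W330R on day 2, so that replicate 2 of WT lay above both W330R libraries.

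**Figure D3:**
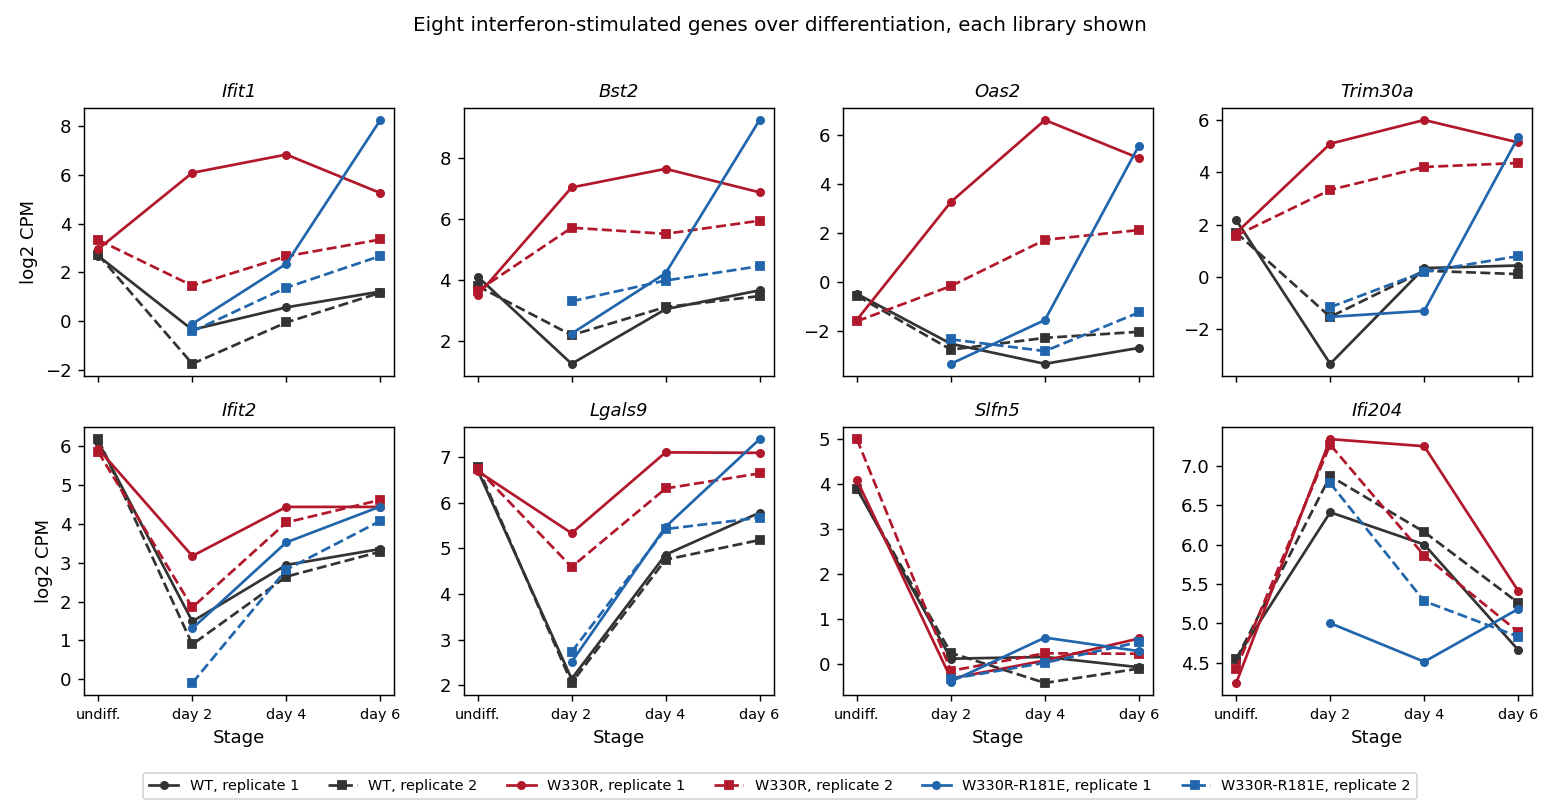
Log2 CPM of 8 interferon-stimulated genes at each stage, with colour for genotype, solid lines with circles for replicate 1 and dashed lines with squares for replicate 2. Ifit1, Bst2, Oas2 and Trim30a lie higher in W330R on days 2 to 6 and in replicate 1 of W330R-R181E on day 6. Ifit2 dipped on day 2 and partly returned, Slfn5 stayed low from day 2, and Ifi204 was higher on day 2. Lgals9 dipped on day 2 as well. It partly returned in WT, and came near or above its undifferentiated level in W330R by day 6.

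Across all 4 stages together, 29 of the 45 genes were called higher in W330R than in WT and 0 lower, at an adjusted p under 0.05 in edgeR's quasi-likelihood test over all genes, where 11.2% of all genes were called higher. Their median log2 fold change was 1.84. The choice of these genes used this contrast, so that nothing is read from these counts, nor from the fact that every W330R library of days 2 to 6 exceeded every WT library of those days in 20 genes (2.73% of all genes). By stage, 6 of 45 were called higher on day 2, where 1.88% of all genes were called higher, 1.18% lower and 3.06% in either direction. On day 4 it was 9, against 2.73% higher, 3.4% lower and 6.14% in either direction, and on day 6 it was 2, against 2.31%, 5.23% and 7.54%. These small counts use the same contrast, and nothing is read from them. They stood beside medians of 2.87, 2.66 and 1.52, and the spread between replicates enters the test. The shares of all genes called under the settings that follow are not given here. With the replicate number as a block the counts were 17, 22 and 12, and with DESeq2 23, 27 and 13. With any 1 library of the contrast left out they were at most 3, 4 and 0.

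Adipocyte markers moved with the same contrast. Their sum was 3250 and 2880 CPM in WT against 2530 and 1970 CPM in W330R on day 2, 4630 and 5950 against 1890 and 2320 CPM on day 4, and 4680 and 9230 against 1440 and 1640 CPM on day 6. Of the 8 markers, 2 were called lower in W330R on day 2 (Cebpa and Cidec), the same 2 on day 4, and 7 on day 6, with 0 higher, beside the shares of all genes called lower given above. The part of this difference in the levels of the interferon-stimulated genes was not tested.

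Before differentiation the genotypes were close in the median of the 45 genes. None of the 45 genes was called in undifferentiated cells by edgeR (1.75% of all genes were called in either direction), with 2 at an unadjusted p under 0.05, and DESeq2 called 1. A fit of the undifferentiated libraries alone called 10, so that the count depends on which libraries enter the fit. The share of all genes called in that fit is not given here. Examples picked after the values were seen go both ways. WT lay above W330R for Isg20 (1.75 and 1.92 against 0.57 and 0.03) and Oas1a (0.83 and 1.07 against -1.54 and -0.83). It lay below for Lgals3bp (6.98 and 6.99 against 7.65 and 7.63) and Slfn5 (3.90 and 3.90 against 4.09 and 5.00). The median difference was -0.04 log2. In the fit of all libraries, a difference in either direction was not detectable at this depth and number of libraries for most genes. That does not show that the levels were equal.

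The gap between the 2 libraries of a condition was itself uneven. That replicates differ strongly on days 2 to 6 was known before these counts were made. The counts of the gap, here and in the next paragraph, are descriptions, and nothing is read from them. In W330R, replicate 1 exceeded replicate 2 by more than 1 on the log2 scale in 31 of the 45 genes on day 2 (3.9% of all genes), 37 on day 4 (3.79%) and 21 on day 6 (3%). In the double mutant on day 6 it did so in 39 of 45 (8.05% of all genes). The median gaps of these 4 conditions were 1.33, 1.93, 0.93 and 3.02, and those of the 7 other conditions lay between -0.19 and 0.07.

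In 41 of 45 genes, replicate 1 of W330R lay above replicate 2 on each of days 2, 4 and 6, against 19% of all genes. The exceptions were Ifit2, Ifitm3, Ifi205 and Slfn5. The summed immune markers did not follow the gap in W330R, being 9.84 and 13.9 CPM on day 2, 11 and 14 CPM on day 4 and 10.7 and 20.9 CPM on day 6. They were 18.6 and 16.7 CPM in the double mutant on day 6. The summed adipocyte markers of that pair were 1700 and 3030 CPM, and those of W330R were 2530 and 1970, 1890 and 2320, and 1440 and 1640 CPM. Their part in the gap was not tested.

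**Figure D4:**
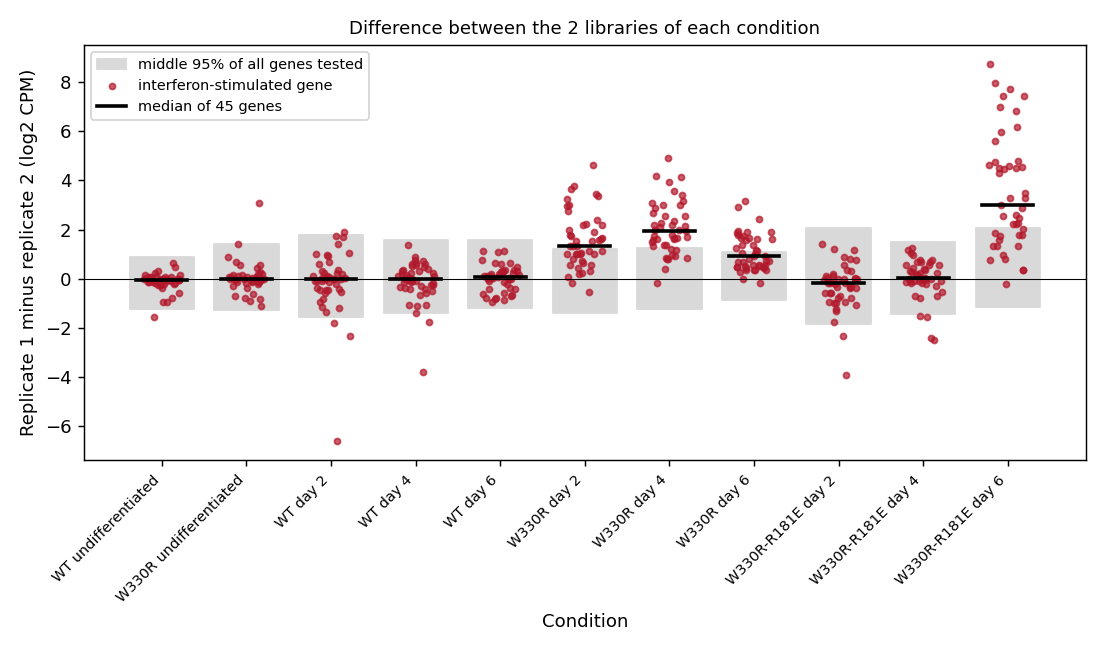
Replicate 1 minus replicate 2 in log2 CPM for each of the 45 genes (red points) in the 11 conditions, with the median as a black bar and the middle 95% of all 14520 tested genes as a grey band. Points of W330R on days 2 to 6 and of W330R-R181E on day 6 lie mostly above 0, with medians of 1.33, 1.93, 0.93 and 3.02.

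Compared within a replicate number, W330R minus WT had medians of 2.98 in replicate 1 and 1.57 in replicate 2 on day 2, 3.18 and 1.13 on day 4, and 1.88 and 1.09 on day 6. The medians over all tested genes were between 0 and 0.05. Replicate 2 alone thus had a median above 1 on each day, with 28, 25 and 24 of the 45 genes higher by more than 1. Of all genes, 9.83%, 10.2% and 9.41% were higher by more than 1, and 1, 3 and 2 of the 45 were lower by more than 1. These libraries are among those behind the choice of the genes, so that nothing is read from these counts. In undifferentiated cells the same medians were -0.02 and -0.10.

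The double mutant was compared with W330R to ask whether the added R181E change alters the level of these genes. The comparison uses the W330R libraries behind the choice of the genes, and is not independent of it. Averaged over days 2 to 6, 15 of 45 genes fell and 0 rose (9.36% of all genes were called lower, 7.87% higher and 17.2% in either direction), with a median log2 fold change of -1.27 against 0.01 over all genes. Trim30a fell by 4.12 ± 0.66 (SE; adjusted p = 0.00089 in edgeR's quasi-likelihood test), Oas2 by 4.82 ± 1.2 (adjusted p = 0.016) and Oas1a by 3.80 ± 0.94 (adjusted p = 0.013). Oas1g, with 0 counts in 4 of the 6 double mutant libraries, fell by 5.57 ± 1.4 (adjusted p = 0.016) on the fitted scale.

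By role, the genes that fell were Ifit2, Usp18, 4 of the 6 tested oligoadenylate synthetases (Oas1a, Oas1g, Oas2 and Oasl2), Parp9, Parp14 and Dtx3l, Ifi203 and Ifi204, Apol9a, Lgals9, Ifi44 and Trim30a. Neither ISGF3 subunit passed the test. On days 2 and 4 the medians were -2.98 and -3.14 in replicate 1 and -1.41 and -0.81 in replicate 2. On day 6 they were 1.21 in replicate 1 and -0.68 in replicate 2, so that the 2 replicate numbers had opposite signs.

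Same-numbered libraries of the same day deviated together on days 2 to 6, with r of 0.157 to 0.534 in all 9 pairs. Over all 36 pairs of conditions on days 2 to 6, r ran from -0.0213 to 0.534 and was over 0.1 in 26. With the number as a block 23 of 45 genes were called, and the share of all genes under that setting is not given here. The count without 1 library ranged from 8 to 31. It was 31 without replicate 1 of the double mutant on day 6, and 8 or 9 without replicate 1 of W330R on day 2, 4 or 6 or without either double mutant library of day 4. Without all 3 of these W330R libraries, a setting chosen after the data were seen, 1 gene, Trim30a, was called, and without replicate 1 of the double mutant on day 6 as well, 20.

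Against WT, 1 of 45 genes was called in the double mutant, higher (4.46% of all genes were called higher, 5.12% lower and 9.57% in either direction). Bst2 rose by 2.29 ± 0.61 (SE, adjusted p = 0.033 in edgeR's quasi-likelihood test), but by 1.00 (adjusted p = 0.15) without replicate 1 of the double mutant on day 6. The count was 0 without either WT library of day 2 or of day 4, without replicate 2 of WT on day 6, and without replicate 1 of the double mutant on day 4 or day 6. With the replicate number as a block, 4 genes were called, and without replicate 2 of the double mutant on day 6, 12. The median over the 45 genes was 0 and 0.18 on day 2 and 0.26 and 0.24 on day 4 in the 2 replicates, and 2.79 and 0.28 on day 6. On day 6 the 2 libraries thus gave different answers. Shares of all genes called under the alternative settings are not given here, so their counts are not read against a background.

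**Figure D5:**
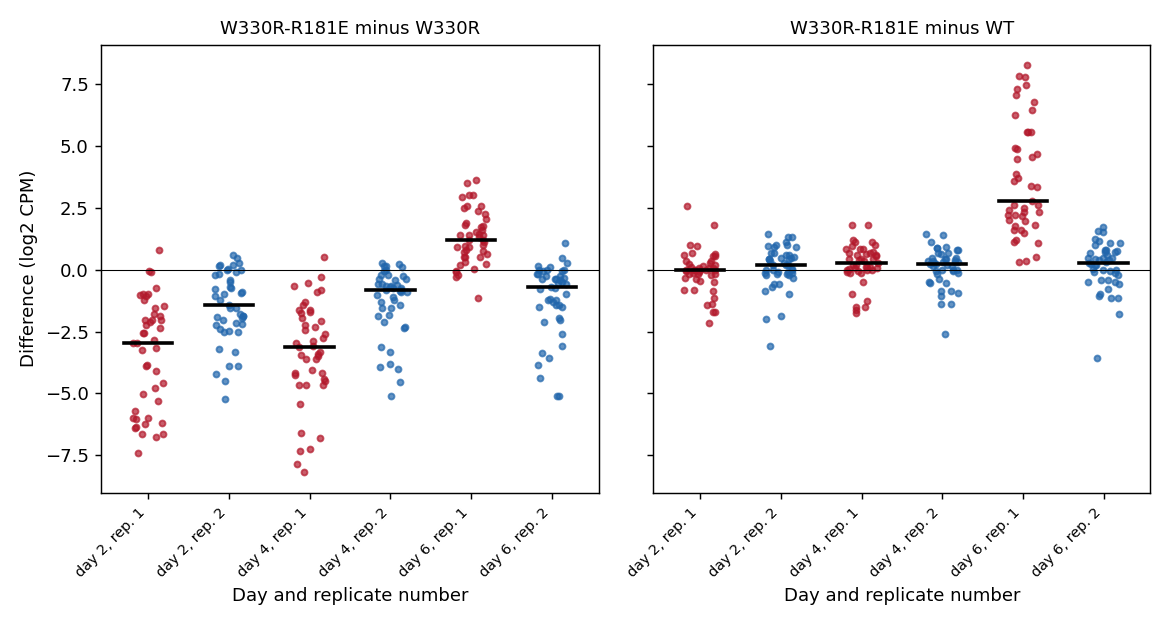
Differences in log2 CPM of the 45 genes between W330R-R181E and W330R (left) and WT (right), computed between libraries of the same day and replicate number, with the median as a black bar, red for replicate 1 and blue for replicate 2. Against W330R the medians are below 0 except in replicate 1 of day 6 (1.21), and against WT they are near 0 except there (2.79).

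In replicate 1 of the double mutant on day 6, 29 of the 45 genes had their highest value of all 22 libraries (5.06% of all genes), and 40 exceeded every other WT and double mutant library of days 2 to 6 (12.3% of all genes). The 5 that did not were Ifi204, Ifi205, Slfn2, Slfn5 and Ifi27. The strong difference between replicates was known beforehand, and nothing is read from these counts. Over the 14395 tested genes outside all lists used here, the log2 CPM of this library correlated with the other 5 libraries of day 6 at r = 0.952 to 0.974, and with replicate 2 of its own condition at 0.967. These points are genes of 1 library pair each and not independent replicates.

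From day 2 to day 6 in WT, 8 of 45 genes were called higher (14.8% of all genes) and 2 lower (11.8%), with a median of 1.26. At 17.8% of the 45, the share called higher was near the background. Lgals9 rose by 3.45 ± 0.48 (SE, adjusted p = 2e-04 in edgeR's quasi-likelihood test), Uba7 by 2.42 ± 0.77 (adjusted p = 0.031), Parp9 by 2.31 ± 0.54 (adjusted p = 0.006) and Ifit2 by 2.16 ± 0.44 (adjusted p = 0.003). The other 4 were Parp14, Dtx3l, Ifi27 and Samd9l. Ifi204, a nucleic acid sensor of the Ifi200 family, fell by 1.67 ± 0.50 (adjusted p = 0.023). Slfn2 was the other gene called lower, with 0 and 196 counts on day 2 and 0 in both libraries of day 6. Its call thus rests on replicate 2 of day 2 alone. The count was 10 in all, and 4, 5 and 6 without replicate 2 of day 2, replicate 1 of day 6 or replicate 2 of day 6.

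In W330R, the same step gave 3 genes higher (13.6% of all genes) and 1 lower (11.3%). Ifit2 rose by 1.90 ± 0.40 (SE, adjusted p = 0.0041 in edgeR's quasi-likelihood test), Lgals9 by 1.88 ± 0.42 (adjusted p = 0.0056) and Slfn9, a Schlafen gene, by 2.06 ± 0.57 (adjusted p = 0.017), whereas Ifi204 fell by 2.13 ± 0.50 (adjusted p = 0.0072). The count of 4 went to 2 without replicate 2 of day 2, and the share called was below that of all genes. In the double mutant, 33 of 45 genes were called higher and 0 lower (12.9% of all genes were called higher and 10.3% lower), with a median of 3.96. Ifit3 rose by 8.97 ± 1.8 (adjusted p = 0.0031), Isg15 by 8.14 ± 1.9 (adjusted p = 0.0076), Oasl2 by 7.99 ± 2.1 (adjusted p = 0.013) and Ifit1 by 7.77 ± 2.0 (adjusted p = 0.014).

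This rise in the double mutant came with very unequal replicates, with medians of 4.36 in replicate 1 and 0.90 in replicate 2, the latter close to the 0.93 and 0.99 of WT. Without replicate 1 of day 6 the count was 8, and without replicate 1 or 2 of day 2 it was 20 or 10. A fit of the 2 conditions alone called 0 genes. The difference of the step between the double mutant and WT was called in 0 of 45 genes by edgeR (0.0413% of all genes were called), with 11 at an unadjusted p under 0.05, and in 2 by DESeq2. Between the double mutant and W330R it was called in 0 by edgeR (0% of all genes), with 32 at an unadjusted p under 0.05, and in 13 by DESeq2. Shares of all genes called by DESeq2 and under the other alternative settings are not given here. Those counts are therefore not read against a background.

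From undifferentiated cells to day 2, 17 of 45 genes fell in WT (24.4% of all genes were called lower) and 1, Ifi204, rose (26.5% were called higher). Ifit3 fell by 6.27 ± 1.7 (SE, adjusted p = 0.0069 in edgeR's quasi-likelihood test), Ifit2 by 4.99 ± 0.47 (adjusted p = 1.5e-06), Lgals9 by 4.70 ± 0.50 (adjusted p = 4e-06) and Trim30a by 4.63 ± 1.5 (adjusted p = 0.017). The others were Herc6, Parp9, Parp14, Dtx3l, Helz2, Ifi203, Slfn5, Slfn8, Slfn9, Apol9a, Xaf1, Samd9l and Isg20. The count of 18 went to 11 without replicate 2 of WT on day 2.

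In W330R, 9 of 45 genes rose (25.1% of all genes) and 6 fell (23%) over the same step. The steps of WT and W330R use the libraries behind the choice of the genes, and their p-values are not independent of it. Oas1a rose by 4.87 ± 1.8 (SE, adjusted p = 0.033 in edgeR's quasi-likelihood test), Usp18 by 4.50 ± 1.6 (adjusted p = 0.032), Bst2 by 2.97 ± 1.1 (adjusted p = 0.031) and Ifi204 by 2.98 ± 0.53 (adjusted p = 4e-04). Slfn5 fell by 5.01 ± 0.36 (adjusted p = 2.3e-07), Slfn9 by 3.43 ± 0.59 (adjusted p = 0.00033), Ifit2 by 3.26 ± 0.42 (adjusted p = 3.1e-05) and Lgals9 by 1.71 ± 0.42 (adjusted p = 0.0042). The calls of Oas1a, Usp18 and Bst2 were lost without either undifferentiated library and without replicate 1 of day 2, with the count of 15 at 5, 6 and 7. In W330R 33.3% of the 45 genes were called against 48.2% of all genes, and in WT 40% against 50.9%, so that neither count in either direction stood above the background. For the lower direction alone, 37.8% of the 45 genes were called in WT against 24.4% of all genes, with a median of -2.32 against 0.06. In W330R it was 13.3% against 23%, with a median of 0.92 against 0.08. In 14 of the 45 genes (2.49% of all genes), both WT libraries were lower and both W330R libraries higher on day 2 than before differentiation.

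Ifit2, Lgals9, Slfn5 and Slfn9 thus fell by day 2 with either form of DNMT3A1, except that Lgals9 fell by less in W330R, a difference that was not tested. Slfn5 stayed between -0.43 and 0.58 in all 18 libraries of days 2 to 6, regardless of genotype and replicate, after 3.90 to 5.00 in undifferentiated cells. Ifi204 had the reverse course. It was at 4.24 to 4.55 in undifferentiated cells, at 5.00 to 7.34 on day 2, and at 4.66 to 5.41 on day 6. About 34.0% of its 31-base sequences were found in other genes, mostly Ifi211, and its counts may include theirs.

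The other genes of the pathway were taken from lists. Of 21 interferon genes, 19 were at 3 counts or fewer in every library, namely Ifnb1, Ifng, Ifnk, Ifnl2, Ifnl3, Ifnab and the alpha genes Ifna1, Ifna2, Ifna4, Ifna5, Ifna6, Ifna7, Ifna9, Ifna11, Ifna12, Ifna13, Ifna14, Ifna15 and Ifna16, and 10 of them were at 0 in all. Added up, these 19 genes had 0 counts in 14 libraries, at most 3 counts in 7, and 8 counts, over 5 genes, in replicate 1 of the double mutant on day 6. Those 8 were 1 count of Ifnb1, 2 each of Ifna4, Ifna5 and Ifnab and 1 of Ifna16, in a library of 40904296 counts. They were singled out after the values were seen, and none of these genes exceeds the floor. Ifne had at most 12 counts, and Ifnz, interferon zeta, was at -0.34 to 1.36 on days 2 to 6 in all 3 genotypes and at 2 counts or fewer before.

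Among the receptor genes, Ifnar1 was at 6.42 to 7.13 and Ifnar2 at 4.69 to 5.73 over all libraries, and in replicate 1 of the double mutant on day 6 they were at 6.42 and 5.36. Averaged over days 2 to 6, Ifnar2, Ifngr2 and Il10rb passed the test with lower levels in the double mutant, against W330R, 3 of the 5 receptor genes tested, where 9.36% of all genes were called lower. Without replicate 1 of the double mutant on day 6, Il10rb was no longer called. Ifngr1 and Il10rb, chains of the receptors for interferon gamma and interferon lambda, varied more, over 5.21 to 7.86 and 2.92 to 5.48. Irf7, which amplifies the type I response, was at 6.40 in replicate 1 and 1.31 in replicate 2 of the double mutant on day 6, and at 4.75 and 1.88 in W330R on day 4. It was not called in the double mutant against W330R, and it was called higher on day 6 than on day 2 in the double mutant. Tyk2 was at a count of 0 in 17 of the 22 libraries, a value not compared further.

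Of 28 tested interferon-stimulated genes outside the 45, 12 fell in the double mutant against W330R (9.36% of all genes were called lower) and 0 rose, among them Gbp2, Gbp7, Igtp, Parp12, Ddx60 and the class I genes B2m, H2-K1 and H2-D1. From day 2 to day 6 in the double mutant, 23 of the 28 rose (12.9% of all genes were called higher) and 0 fell, including the RNA sensors Ddx58 (RIG-I), Ifih1 (MDA5) and Dhx58. Without replicate 1 of the double mutant on day 6, a setting chosen here after the data were seen, 6 rose, and 21 fell against W330R. Without replicate 1 of W330R on days 2, 4 and 6, 2 genes, Sp100 and H2-D1, fell against W330R. H2-D1 separated W330R from WT in both replicates, with 7.65 and 7.45, 7.55 and 6.93, and 7.11 and 7.30 on days 2, 4 and 6 against 3.66 to 5.98 in WT. Among 3 tested genes of interferon gamma and class II, 0 were called in this comparison of the double mutant with W330R.

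The 45 genes were then compared by how closely each followed the mean of the other 44 over the 22 libraries. Pearson's r was at least 0.9 in 20 genes, at least 0.8 in 27, and under 0.5 in 7, with a median of 0.89. The 7 were Ifitm3, Ifi204, Ifi205, Slfn2, Slfn5, Ifi27 and Isg20. Without replicate 1 of the double mutant on day 6 the median was 0.86, with 25 genes at 0.8 or more. Over the 18 libraries of days 2 to 6 it was 0.93, with 33 genes at 0.8 or more. These libraries share genotypes and stages, and the correlations are descriptions.

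Outside the list, the 10 genes closest to the mean of the 45 were H2-T22 (r = 0.977), Ddx58 (0.958), Trim34b (0.957), Igtp (0.949), Ddx60 (0.945), Trim34a (0.943), Gbp7 (0.938), Parp12 (0.929), Adar (0.927) and Mndal (0.926). H2-T22 was at 6.99 and 5.44 in the double mutant on day 6 and at 6.64 and 5.83 in W330R on day 4. An ISRE core match did not track the likeness: the 18 filtered genes with a match had r from 0.05 to 0.96 with a median of 0.88, and the 17 without one from 0.15 to 0.98 with a median of 0.81.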

How the data were processed

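The data were RNA-seq of 22 libraries of C3H 10T1/2 cells, prepared from total RNA with an NEBNext Ultra II kit. The authors deposited 1 table of estimated counts per gene symbol, held as whole numbers without normalization. The submitters' processing notes name kallisto, DESeq2 1.40 and GRCm39. The annotation, the rounding and the use of strand are not given in the sources used here, so that overlapping and antisense genes may share reads. Library totals ran from 8859501 to 47453908, and counting floors of 3 counts cover counting error only.

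From the deposited estimated counts, genes were filtered in R 4.3.3 by the filterByExpr function (a count of at least 10 and a total of at least 15; edgeR 4.0.16), scaled by TMM and fitted in 1 quasi-likelihood model with 1 mean per condition over all 22 libraries. P-values were adjusted by Benjamini-Hochberg over the 14520 genes tested, with calls under 0.05. Each SE is the absolute log2 fold change over the root of its F value. Levels are log2 CPM with a prior count of 2. The script was tested on simulated data.

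Members and lists were chosen with earlier results of these data known. Genes named were, in each role, the gene with the highest mean and that with the largest SD, Ifit1 and Apol9a, and up to 4 called genes per direction and contrast. Others are named as exceptions after their values were seen, among them Isg15, H2-D1, Irf7 and the receptor genes. Shared sequence was counted as 31-base words of GENCODE vM21 transcripts.

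Alternatives were DESeq2 1.42.0, RLE scaling, no filter, only the conditions compared, the replicate number as a block, each library left out, and, chosen after seeing the data, leaving out the libraries that stood apart. Deviations from condition means correlated at 0.157 to 0.534 in all 9 pairs of same-numbered libraries of the same day on days 2 to 6. The numbers, which come from the labels, thus go with a shared deviation on days 2 to 6, and not only between libraries of the same day. Over all 36 pairs of conditions on days 2 to 6, the same day or not, r ran from -0.0213 to 0.534 and was over 0.1 in 26. For undifferentiated against later libraries the range was -0.0665 to 0.0125.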

Additional observations from a re-analysis of the deposited data

Results flagged for a closer look

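From undifferentiated cells to day 2, 14 of the 45 genes had lower values in both WT libraries and higher values in both W330R libraries, an opposite course whose difference was not tested. The values below are the change in W330R minus the change in WT, in log2 CPM, with n = 2 libraries per condition. They were 7.60 for Oas1a (-3.43 in WT and 4.17 in W330R), 6.95 for Trim30a (-4.37 and 2.58), 6.73 for Usp18 (-2.70 and 4.03), 5.88 for Ifi44 (-3.46 and 2.42), 5.25 for Oas2 (-2.12 and 3.13), 5.21 for Oasl2 (-1.78 and 3.43) and 5.05 for Bst2 (-2.24 and 2.81). For Isg15 the value was 3.75, for Mx2 3.41, for Parp14 3.34, for Oas1b 3.30 and for Ifi203 3.18. It was smaller for the ISGF3 subunit Irf9, at 1.53, and for the ISG15-activating enzyme Uba7, at 1.22. These contrasts use the WT and W330R libraries behind the choice of the genes.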

How the results depend on the processing

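Shares of all genes called are not given for the alternative settings, here or above, so that their counts are not read against a background. RLE scaling moved no count of called genes by over 1.5 times, and none of the 31 named fold changes reversed under any alternative. These 31 were picked among called genes, and keeping a sign does not mean keeping a call. With only the conditions compared, 8 of them were no longer called, and calls were also lost with libraries left out. The other counts that moved follow, for W330R against WT first in undifferentiated cells and on days 2, 4 and 6. DESeq2 called 1, 23, 27 and 13 genes, the replicate block 1, 17, 22 and 12, and a fit without the other conditions 10, 0, 0 and 1. Without the filter, the counts of days 2, 4 and 6 were 19, 25 and 13. For the double mutant, first against W330R and then WT, no filter gave 23 and 4, the replicate block 23 and 4, and only the conditions compared 6 and 0, and DESeq2 gave 11 against WT. DESeq2 called 2 and 13 genes for the differences of the step to day 6 (double mutant against WT and against W330R). With only the conditions compared, the step from day 2 to day 6 gave 7 in W330R and 0 in the double mutant, and the step to day 2 gave 29 in WT. The replicate numbers pair libraries of days 2 to 6 only, and the block changed no other count by over 1.5 times.

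With 1 library left out, the counts ranged from 23 to 30 for W330R against WT over 4 stages, 0 to 0 in undifferentiated cells, 0 to 3 on day 2, 0 to 4 on day 4 and 0 to 0 on day 6. They ranged from 8 to 31 for the double mutant against W330R and 0 to 12 against WT, and from 4 to 8, 2 to 4 and 8 to 38 for day 6 against day 2 in WT, W330R and the double mutant. For day 2 against undifferentiated cells they ranged from 11 to 15 in WT and 5 to 13 in W330R. For both differences of the step to day 6 they were 0 to 0. A condition left with 1 library was assumed to vary like the others.

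Without the 3 libraries of W330R replicate 1 (days 2, 4 and 6), a setting chosen after seeing the data, the counts were 8 for W330R against WT over 4 stages, 0, 0 and 0 on days 2, 4 and 6, 1 for the double mutant against W330R, 1 for day 6 against day 2 in W330R and 9 for day 2 against undifferentiated cells in W330R. Without replicate 1 of the double mutant on day 6 as well, they were 12 on day 2 and 12 on day 6 for W330R against WT, 3 genes between double mutant and WT, 21 and 18 for day 6 against day 2 in WT and the double mutant, and 30 for day 2 against undifferentiated cells in WT. The cause of these moves was not tested. With 2 libraries per condition, few differences can be called where replicates are far apart, and depth limits Rsad2, Cmpk2, Oas3 and Slfn8.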
